A study of Mus musculus with 12 samples.

Results

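The genes described here encode the integrins and the laminins, taken as every symbol on the array that starts with Itga, with Itgb and a single digit, or with Lama, Lamb or Lamc and a single digit. The rule used names and no measured value. It found 35 genes of 34509 on the array, 25 integrin subunits and 10 laminin chains, carried by 73 of 46632 probes. The RNA came from femoral head cartilage explants of 21-day-old TS-4/5∆cat mice, which lack the catalytic domains of the aggrecanases ADAMTS-4 and ADAMTS-5. Explants were left untreated, treated with IL-1α at 10 ng/ml or treated with retinoic acid at 10 µM, for 3 days in each case. The 12 bead arrays gave 4 for every treatment, of which 2 were in batch 1, from the mouse line Donut, and 2 in batch 2, from the line Gertrude, so batch and line cannot be told apart. The deletions were shared by all 12 arrays, and no array of wildtype cartilage was analysed here. Per the labels, hips were held 4 to a well in medium with 10% FBS for 24 h before treatment. The labels do not say which arrays came from separate wells or animals, so p-values measure the spread between these arrays, which may be technical.

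Integrins are receptors made of an alpha and a beta subunit that span the cell membrane and bind matrix proteins or other cells outside it and the actin cytoskeleton inside it. The alpha subunit largely sets the ligand, and chondrocytes are known to hold collagen and fibronectin through integrins that share the beta1 subunit. Laminins are cross-shaped trimers of an alpha, a beta and a gamma chain that build basement membranes. In cartilage, which has no continuous basement membrane, laminins and related proteins are found in the pericellular matrix around chondrocytes.

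Array values are log2 intensities after background correction and quantile normalization, where 1 unit is a doubling. A probe counted as detected on an array when its detection p was under 0.05, and it was tested when it was detected on at least 4 of the 12 arrays. Between 13786 and 14965 probes were detected on the arrays of batch 1 and between 16732 and 19485 on those of batch 2, and the dimmest detected probe read 4.86 to 5.48 depending on the array. Across the tested probes, arrays of the same treatment and batch correlated at 0.983 to 0.995. All 5 genes listed as a check of retinoic acid rose with it. Of the 4 tested genes listed as a check of IL-1, 3 rose with IL-1α. Chondrocyte markers were present, with 7 of 8 genes tested, and all 7 fell with retinoic acid. Neutrophil and red cell markers were also present, with 9 of 9 and 4 of 5 genes tested. So were markers of endothelial cells (8 of 8), synovial and fibrous tissue (6 of 6), macrophages (6 of 8), osteoblasts (5 of 6) and osteoclasts (4 of 6). The summed linear level of the chondrocyte markers was 53122 to 63495 on untreated arrays, 33103 to 43355 with IL-1α and 9894 to 15095 with retinoic acid. In bulk tissue, fewer cells of a type and less RNA per cell cannot be told apart, and the part of this fall in the results for integrins and laminins was not tested.

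Of the 35 genes, 19 passed the detection filter, 13 integrin subunits and 6 laminin chains. None of the 19 was detected in the arrays of 1 treatment only. The other 16 were left out of the test by the filter. Among these were the alpha subunits *Itga4*, *Itga8*, *Itga9*, *Itgad*, *Itgam* and *Itgax*, the beta subunits *Itgb6* and *Itgb8* and the laminin chain *Lama1*, whose brightest probes were detected on 0 of 12 arrays. Of the 73 probes, 37 were detected on no array. The remaining 6 genes were detected on 2 or 3 arrays each and are described with their relatives. *Itga2*, the alpha subunit of another collagen receptor, and *Lamb1* have no probe under those symbols. The symbol *Lamb1-1* is on the array but did not match the rule, so it is outside the 35 genes.

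**Figure D1:**
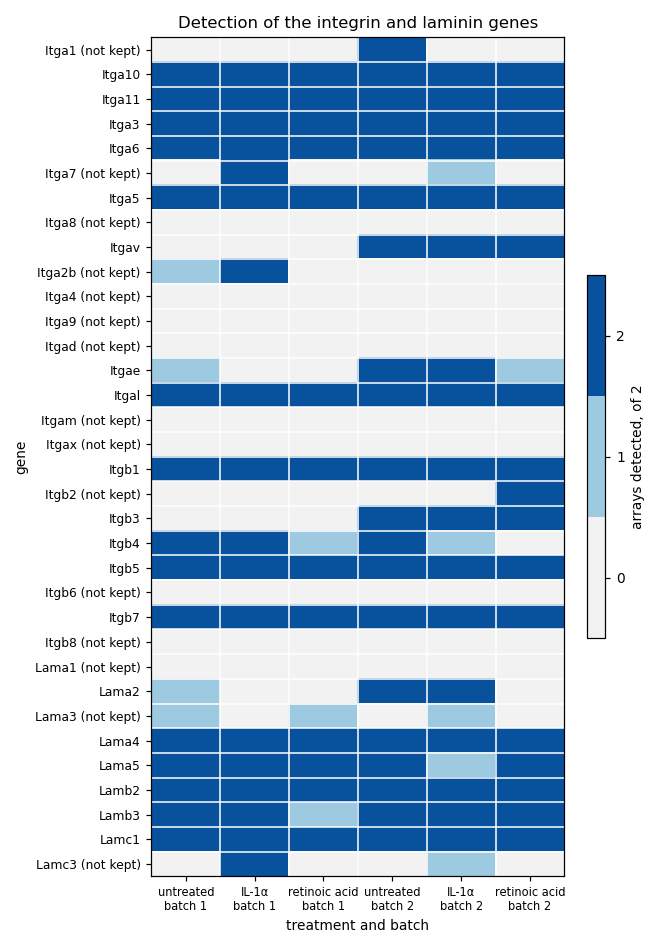
Number of arrays, of 2 in each treatment and batch, on which the probe that stands for each gene shown was detected. Rows are genes ordered by the role of their product, columns are treatment and batch, and genes named as not kept were detected on fewer than 4 of the 12 arrays. *Itga7* and *Lamc3* show detection with IL-1α only, and *Itgb2* with retinoic acid in batch 2 only.

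With retinoic acid, 4 of the 19 genes rose against untreated cartilage, *Itga11*, *Itga3*, *Itgb1* and *Lama5*, and 6 fell, *Itga10*, *Itga6*, *Itgb4*, *Lama2*, *Lamb2* and *Lamb3* (limma, adjusted p under 0.05). These 10 are 52.6% of the genes tested, against 36.7% of the 14317 genes tested on the whole array. The median log2 change was -0.06 over the 19 genes and 0.01 over all genes. With IL-1α, *Itga5* rose and *Itga10*, *Itgb4* and *Lamb3* fell, which is 21.1% of the 19 against 30.2% of all genes, with medians of 0.04 and 0.01. Between the treatments, *Itga10*, *Itga11*, *Itgb1*, *Lama5* and *Lamc1* exceeded their level under IL-1α in the retinoic acid arrays and *Itga5* and *Itga6* were lower there, 36.8% against 32.5% of all genes. Both comparisons against untreated cartilage use the same 4 untreated arrays. All 4 arrays of 1 treatment lay beyond all 4 of the other for 7 of the 19 genes between retinoic acid and untreated, against 18% of all genes. The same held for 2 of 19 between IL-1α and untreated, against 14.3%, and for 5 of 19 between the treatments, against 18.9%.

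**Figure D2:**
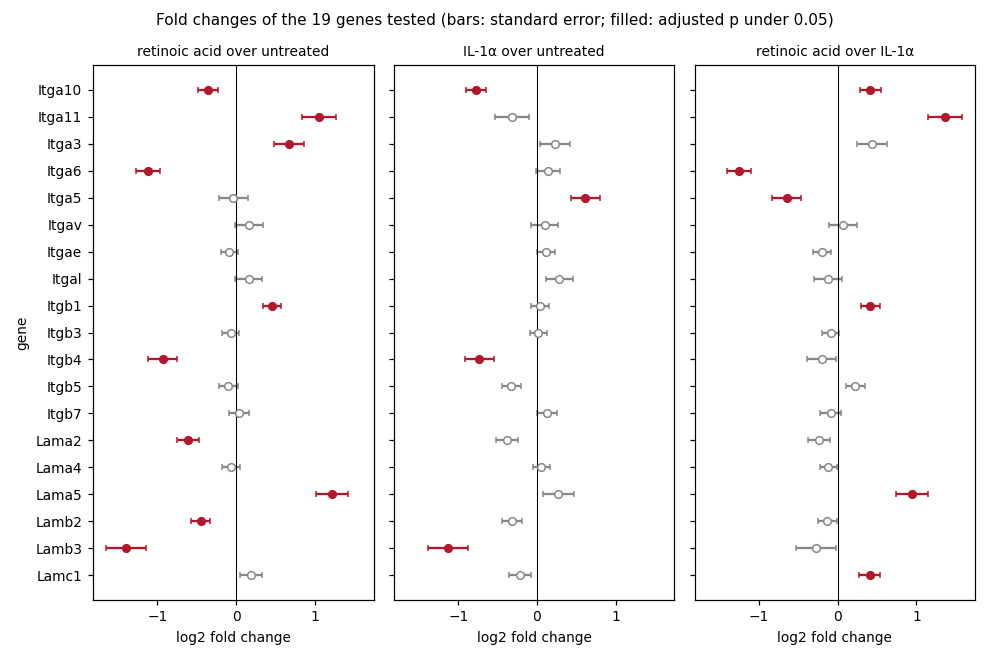
Log2 fold change of each of the 19 tested genes (x axis) in the 3 comparisons, with bars for the standard error from limma and filled red points for adjusted p under 0.05. The highest and lowest values in the panel of retinoic acid over untreated are 1.22 for *Lama5* and -1.40 for *Lamb3*.

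Among the 19 genes, *Lama5* and *Lamb3* had the largest rise and the largest fall with retinoic acid over untreated, and *Itga11* the largest difference between the treatments. The 250 bases before their annotated starts are shown because they are the stretch nearest the start of each transcript, taken from the RefSeq promoter windows of GRCm38.p6, which held 24 windows for 21 of the 35 genes. That build is the table's and not the array's. The *Itga11* window lies at chr9:62677605-62677854 on the plus strand, the *Lama5* window at chr2:180225860-180226109 on the minus strand and the first of the *Lamb3* windows at chr1:193301744-193301993 on the plus strand. Each is printed 5′ to 3′ along its gene:
Itga11: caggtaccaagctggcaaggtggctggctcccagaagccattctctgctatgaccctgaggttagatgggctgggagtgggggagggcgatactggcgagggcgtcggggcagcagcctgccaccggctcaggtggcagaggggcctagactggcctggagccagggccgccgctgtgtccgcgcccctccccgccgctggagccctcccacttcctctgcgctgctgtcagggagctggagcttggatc
Lama5: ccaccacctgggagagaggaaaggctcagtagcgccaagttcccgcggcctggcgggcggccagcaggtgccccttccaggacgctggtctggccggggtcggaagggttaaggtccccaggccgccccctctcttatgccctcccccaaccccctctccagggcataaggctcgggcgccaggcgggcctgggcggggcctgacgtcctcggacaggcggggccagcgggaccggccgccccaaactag
Lamb3: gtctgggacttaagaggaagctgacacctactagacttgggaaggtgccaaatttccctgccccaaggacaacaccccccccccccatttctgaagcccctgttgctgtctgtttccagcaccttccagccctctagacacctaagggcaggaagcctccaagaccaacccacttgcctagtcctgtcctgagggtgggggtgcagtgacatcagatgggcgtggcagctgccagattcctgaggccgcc
G and C made up 68.4% of the bases for *Itga11*, 72.4% for *Lama5* and 58.8% for *Lamb3*. The windows were searched on both strands for the exact letters AGGTCA, a form of the site of retinoic acid receptors, and for their direct repeats DR5 and DR2. Other forms of that site were not searched. The same windows were also searched for the kappaB core GGGNNTTNC, the AP-1 letters TGANTCA and the SOX letters ATTGTT. None of these occurred in the 3 windows, so no base is in capitals. Of all 32851 windows of this length, 14.0% held AGGTCA, 0.00913% each held DR5 and DR2, 13.0% the kappaB core, 6.75% the AP-1 letters and 9.42% the SOX letters. The direct repeats contain AGGTCA, so those matches overlap.

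The alpha subunits of collagen receptors moved in opposite directions with retinoic acid. *Itga11* encodes alpha11, which binds fibrillar collagen. Its log2 intensity was 9.19 and 9.35 in batch 1 and 9.46 and 9.71 in batch 2 untreated, 9.24, 9.10, 9.10 and 8.99 with IL-1α, and 9.95, 9.83, 11.07 and 11.05 with retinoic acid, in the same order. All 4 retinoic acid arrays were above every other array, and the rise was larger in batch 2. Retinoic acid raised *Itga11* 2.07-fold over untreated, a log2 change of 1.05 (SE 0.22, limma adjusted p = 0.00199), which was 0.62 within batch 1 and 1.47 within batch 2. Over IL-1α the log2 difference was 1.37 (SE 0.22, adjusted p = 0.000302). IL-1α itself gave -0.32 against untreated (SE 0.22, adjusted p = 0.289).

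*Itga10* encodes alpha10, a receptor for the cartilage collagen type II and a known chondrocyte integrin. It read 11.10, 11.17, 11.21 and 11.17 on the untreated arrays, 10.08 and 10.08 in batch 1 and 10.82 and 10.57 in batch 2 with IL-1α, and 10.58, 10.70, 11.05 and 10.88 with retinoic acid. Every treated array was below every untreated one. IL-1α lowered *Itga10* by a factor of 1.71, a log2 change of -0.77 (SE 0.13, limma adjusted p = 0.00076), with -1.05 within batch 1 and -0.50 within batch 2. Retinoic acid gave -0.36 (SE 0.13, adjusted p = 0.0465), and retinoic acid over IL-1α gave 0.41 (adjusted p = 0.0273), with overlapping arrays. The fall with retinoic acid was lost on leaving out any array other than untreated batch 2 replicate 1, IL-1α batch 1 replicate 2 or IL-1α batch 2 replicate 1, with an adjusted p of up to 0.164, and also without a detection filter and with either other normalization. The difference between the treatments was lost on leaving out any 1 of 6 arrays, all 4 with retinoic acid and both of batch 1 with IL-1α, with an adjusted p of up to 0.12. *Itga1*, the alpha subunit of another collagen receptor, was detected on the 2 untreated arrays of batch 2 only, at 5.11 and 5.19.

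The alpha subunits of laminin receptors also differed in direction. *Itga6* encodes alpha6, which pairs with beta1 or beta4. Its brightest probe read 8.38, 8.10, 8.39 and 9.09 untreated, 8.48, 8.46, 8.70 and 8.88 with IL-1α, and 7.15 and 6.81 in batch 1 and 7.83 and 7.70 in batch 2 with retinoic acid. The retinoic acid arrays all lay below the rest. The fall against untreated was 2.17-fold, a log2 change of -1.12 (SE 0.15, limma adjusted p = 7.6e-05), and it was -1.26 and -0.97 within the batches. Against IL-1α it was -1.26 (SE 0.15, adjusted p = 2.84e-05), while IL-1α against untreated gave 0.14 (SE 0.15, adjusted p = 0.521). The 4 tested probes of *Itga6* did not move alike. For retinoic acid over untreated, ILMN_1223670 gave -0.39 (adjusted p = 0.0443), ILMN_1231492 gave -0.20 (adjusted p = 0.341), and ILMN_1232450 rose by 0.37 (adjusted p = 0.0441). For retinoic acid over IL-1α the same probes gave, in that order, -0.79, -0.33 and 0.19 (adjusted p = 0.000699, 0.118 and 0.321). With IL-1α over untreated only ILMN_1223670 passed, with a rise of 0.40 (adjusted p = 0.0449). The mean of the 4 probes gave -0.33 for retinoic acid over untreated and -0.55 over IL-1α, so the sizes given for *Itga6* belong to its brightest probe.

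*Itga3* encodes alpha3, which binds laminins in company with beta1. The arrays read 6.33, 6.04, 6.98 and 7.44 untreated, 6.87, 6.45, 7.24 and 7.17 with IL-1α, and 6.95, 7.31, 7.93 and 7.29 with retinoic acid. The treatments overlapped, and batch 2 read higher than batch 1 without treatment. Retinoic acid over untreated gave 0.67 (SE 0.19, limma adjusted p = 0.014), with 0.95 within batch 1 and 0.40 within batch 2. An exact two-sided permutation test that left the batch out gave p = 0.2 for the 4 arrays against 4. The call was lost when any 1 of 3 arrays was left out, untreated batch 1 replicate 2, retinoic acid batch 1 replicate 2 or retinoic acid batch 2 replicate 1. Over the arrays left out the log2 change was no lower than 0.51 and the adjusted p was up to 0.0715. The call was also lost without a detection filter and within batch 2.

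*Itga7* encodes alpha7, a laminin receptor known from muscle, and it was below the detection filter. It was detected on 0 of 4 untreated arrays and 0 of 4 retinoic acid arrays. With IL-1α it was detected on both arrays of batch 1, at 6.02 and 5.60, and on 1 array of batch 2, where the arrays read 4.90 and 5.16. *Itga7* was at least 1.23-fold higher with IL-1α than untreated, against the lowest detected signal. No p-value is given, as a looser filter of 2 arrays would admit *Itga7* only through the IL-1α arrays. The skeletal muscle markers, of which 2 of 4 on the array were tested, were lower on all IL-1α arrays. Their summed linear levels were 79.7 to 118 against 135 to 301 untreated. The part of muscle in the *Itga7* signal was not tested.

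*Itgb4* encodes beta4, the partner of alpha6 in hemidesmosomes, the anchors of epithelial cells to basement membranes. Its log2 intensity was 6.01, 6.60, 5.91 and 6.14 untreated, 6.12 and 5.65 in batch 1 and 4.83 and 5.15 in batch 2 with IL-1α, and 5.79, 5.27, 4.99 and 4.89 with retinoic acid. The retinoic acid arrays lay below the untreated ones, and 3 of the 4 were not above background. The log2 change was -0.93 with retinoic acid (SE 0.19, limma adjusted p = 0.00161) and -0.73 with IL-1α (SE 0.19, adjusted p = 0.0109). The IL-1α arrays overlapped with the untreated ones, and without untreated batch 1 replicate 2 that comparison gave an adjusted p of 0.0542. Its call was also lost without a detection filter and within batch 1. Retinoic acid over IL-1α gave -0.20 (SE 0.19, adjusted p = 0.459). Of 6 epithelial markers on the array, 4 were undetected on all 12 arrays, among them *Krt5* and *Krt14*, keratins that define the basal epithelial cells in which hemidesmosomes form. Of the tested markers, *Krt18* rose by 0.65 with retinoic acid (adjusted p = 0.00114) and *Cdh1* gave -0.08 (adjusted p = 0.727). The summed linear level of both was 60.1 to 81.9 untreated, 60.7 to 88.1 with IL-1α and 75.3 to 103 with retinoic acid.

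**Figure D3:**
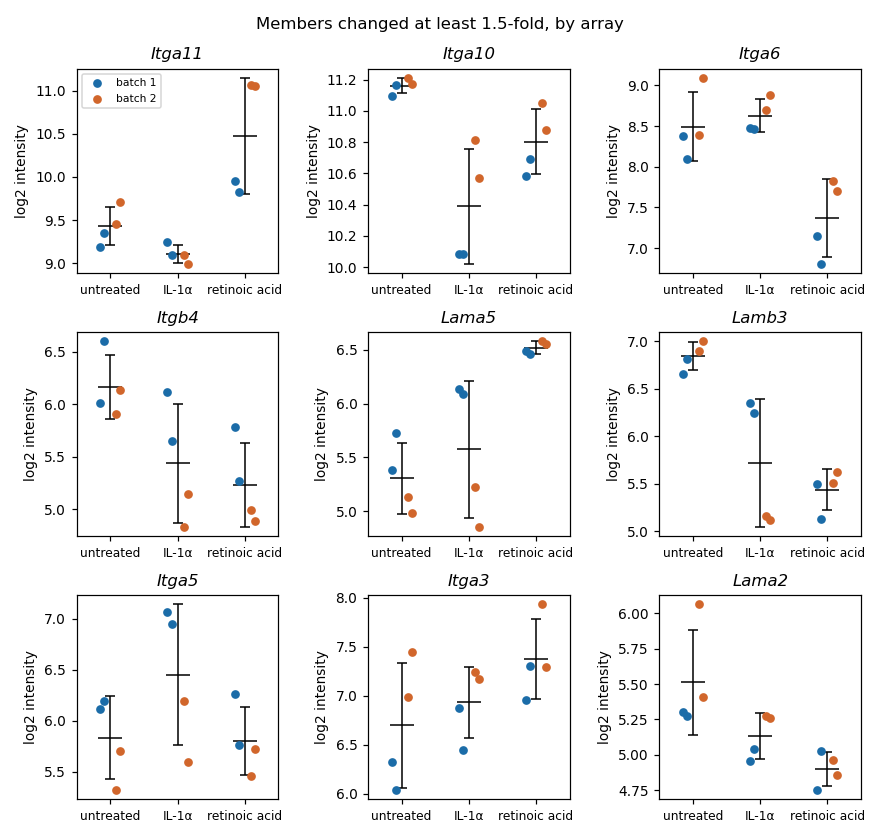
Log2 intensity (y axis) on each of the 12 arrays for the 9 genes that passed adjusted p under 0.05 and 1.5-fold in at least 1 comparison. Points are arrays, blue for batch 1 and orange for batch 2, and black bars are the mean and SD over the 4 arrays of a treatment. Each panel has its own scale. For *Lamb3* with IL-1α the batch 1 arrays sit at 6.35 and 6.24 and the batch 2 arrays at 5.16 and 5.12.

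Of the 2 tested alpha subunits that bind the RGD tripeptide, *Itga5* changed and *Itgav* did not pass the test. *Itga5* encodes alpha5, the classic fibronectin receptor subunit. On the log2 scale it read 6.12, 6.20, 5.32 and 5.71 untreated, 7.06, 6.95, 6.19 and 5.60 with IL-1α, and 6.27, 5.76, 5.46 and 5.72 with retinoic acid. The treatments overlapped across batches, and both IL-1α arrays of batch 1 were above every other array. IL-1α raised *Itga5* 1.53-fold over untreated, a log2 change of 0.62 (SE 0.19, limma adjusted p = 0.0246), with 0.85 within batch 1 and 0.38 within batch 2. The call was lost on leaving out any 1 of 6 arrays, with an adjusted p of up to 0.0994. These were both untreated and both IL-1α arrays of batch 1 and the first replicate of each in batch 2. That call was also lost without a detection filter and within batch 2. Retinoic acid gave -0.03 against untreated (adjusted p = 0.911) and -0.65 against IL-1α (SE 0.19, adjusted p = 0.0169). The latter was lost on leaving out any 1 of 4 arrays, with an adjusted p of up to 0.0771, and also without a detection filter and within batch 2.

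*Itgav* encodes alphav, the subunit of the vitronectin receptors. Its brightest probe was detected on the 6 arrays of batch 2 only, at 6.54 to 7.28, against 4.73 to 5.19 in batch 1. A second probe was detected on all 12 arrays, and neither passed the test in any comparison, with log2 changes between -0.10 and 0.36. *Itgb3*, whose product pairs with alphav or alphaIIb, was likewise detected in batch 2 only, at 5.14 to 5.32. *Itga2b*, which encodes alphaIIb of platelets, was detected on 3 arrays of batch 1 only, 1 untreated and 2 with IL-1α. Line and batch cannot be told apart in these levels.

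*Itgb1* encodes beta1, the common partner of the collagen, laminin and fibronectin receptors named above. It read 12.27, 12.27, 11.84 and 11.59 untreated, 12.24, 12.24, 12.05 and 11.61 with IL-1α, and 12.54, 12.53, 12.47 and 12.26 with retinoic acid. Batch 2 was lower than batch 1 under each treatment, and within each batch both retinoic acid arrays were above the others. Retinoic acid over untreated gave 0.46 (SE 0.12, limma adjusted p = 0.00856), a 1.37-fold rise, and over IL-1α 0.42 (SE 0.12, adjusted p = 0.0163). A second probe of *Itgb1* gave 0.16 over untreated (SE 0.16, adjusted p = 0.46) and -0.04 over IL-1α (adjusted p = 0.882), and with the mean of both probes neither comparison passed the test. The call over IL-1α was also lost without IL-1α batch 2 replicate 2 or without either retinoic acid array of batch 2, with an adjusted p of up to 0.0663. *Itgb5*, a partner of alphav, gave -0.32 with IL-1α on its brightest probe (SE 0.12, adjusted p = 0.0588) and -0.40 on its second probe (SE 0.12, adjusted p = 0.0282). *Itgb7*, a beta subunit of lymphocytes, did not pass the test in any comparison. It read 6.57 to 7.01 in batch 1 and 5.55 to 5.89 in batch 2.

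The alpha subunits of leukocyte integrins were near background throughout. *Itgal*, which encodes the alphaL subunit of LFA-1, was detected on all 12 arrays at 4.96 to 6.06. *Itgae*, which encodes alphaE, was detected on 6 arrays at levels up to 5.50. Neither passed the test in any comparison, with log2 changes between -0.20 and 0.28. *Itgb2* encodes beta2, the partner of alphaL and of the myeloid alpha subunits. It read 6.23 and 6.33 on the 2 retinoic acid arrays of batch 2, and on the other 10 arrays, at 4.41 to 5.01, it was not detected. The rise over untreated was at least 1.21-fold against the lowest detected signal. No p-value is given, as a looser filter of 2 arrays would admit *Itgb2* only through the 2 retinoic acid arrays of batch 2. The general leukocyte markers also read highest on these arrays. The mean of their summed level was 4541 with retinoic acid in batch 2, against 2555 in batch 1 and 3279 untreated in batch 2, while *Ptprc*, which defines leukocytes, was detected on 0 arrays. In batch 2 the macrophage markers averaged 2948 with retinoic acid, 4098 with IL-1α and 1864 untreated. The neutrophil markers averaged 17056, 35215 and 17812 in the same order. The part of leukocytes in the *Itgb2* signal was not tested.

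Among the laminin chains, *Lama5* rose with retinoic acid and *Lama2*, *Lamb2* and *Lamb3* fell. *Lama5* encodes alpha5, the most widespread laminin alpha chain of adult basement membranes. Its log2 intensity was 5.38, 5.72, 5.13 and 4.98 untreated, 6.13 and 6.09 in batch 1 and 5.23 and 4.85 in batch 2 with IL-1α, and 6.49, 6.46, 6.58 and 6.56 with retinoic acid. The retinoic acid arrays lay close together and above all others. Untreated values lay near the dimmest detected signal, and with IL-1α *Lama5* was detected on 3 of 4 arrays. The rise over untreated was 2.32-fold, a log2 change of 1.22 (SE 0.20, limma adjusted p = 0.000379), with 0.92 within batch 1 and 1.51 within batch 2. Over IL-1α it was 0.95 (SE 0.20, adjusted p = 0.0027), with 0.36 within batch 1, where it did not pass the test, and 1.53 within batch 2. IL-1α over untreated gave 0.27 (SE 0.20, adjusted p = 0.333).

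*Lama2* encodes alpha2, the chain of laminins around muscle and nerve. The probe read 5.30, 5.27, 6.06 and 5.41 untreated and 4.75, 5.02, 4.96 and 4.85 with retinoic acid, where it was detected on 0 of 4 arrays. The untreated arrays were all above the retinoic acid arrays, and 3 of them were detected. Since retinoic acid left only a bound, untreated cartilage was at least 1.25-fold higher. The fitted log2 change, which takes the undetected values as read, was -0.61 (SE 0.14, limma adjusted p = 0.00392). It was -0.40 within batch 1, where it did not pass the test, and -0.83 within batch 2. With IL-1α the arrays read 4.95, 5.04, 5.28 and 5.26, a log2 change of -0.38 (SE 0.14, adjusted p = 0.0584). The skeletal muscle markers were lower with IL-1α in the values given for *Itga7*. Their levels were also lower with retinoic acid than untreated in each batch, 124 against 286 in batch 1 and 80.3 against 169 in batch 2. Only 2 of these markers were tested, with log2 changes of -1.45 and -0.21 with retinoic acid, and 1 was called. Their part in the *Lama2* result was not tested. *Lama4*, a chain of vessel laminins, was detected on all 12 arrays and gave log2 changes between -0.12 and 0.06, none of which passed the test. *Lama3*, a chain of laminin-332, was detected on 3 arrays, 1 of each treatment, at up to 5.85.

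*Lamb3* encodes the beta3 chain, which occurs in laminin-332 together with the alpha3 chain and is best known from skin. Its log2 intensity was 6.65, 6.81, 6.90 and 7.0 untreated, 6.35 and 6.24 in batch 1 and 5.16 and 5.12 in batch 2 with IL-1α, and 5.50, 5.13, 5.50 and 5.63 with retinoic acid. Every treated array was below every untreated one, and the IL-1α arrays fell into separate levels by batch. The retinoic acid values lay near the dimmest detected signal, with detection on 3 of 4 arrays, as did the IL-1α values of batch 2. Retinoic acid lowered *Lamb3* by a factor of 2.65, a log2 change of -1.40 (SE 0.25, limma adjusted p = 0.000772), which was -1.42 and -1.39 within the batches. IL-1α gave -1.13 (SE 0.25, adjusted p = 0.00518), with -0.44 within batch 1 and -1.81 within batch 2. The difference between the treatments was -0.28 (SE 0.25, adjusted p = 0.455), made of -0.98 in batch 1 and 0.43 in batch 2. *Lama3*, which encodes the alpha3 chain, was below the detection filter, as were most epithelial markers.

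*Lamb2* encodes beta2, a chain of laminins at kidney filters and nerve endings. Retinoic acid lowered it by 0.45 on the log2 scale (SE 0.12, limma adjusted p = 0.012), from 11.02, 11.03, 9.75 and 9.63 untreated to 10.59, 10.76, 9.18 and 9.11. The treatments overlapped across batches because batch 1 read 10.55 to 11.03 and batch 2 read 9.11 to 9.75, and within each batch both retinoic acid arrays were below both untreated ones. The call was lost with scaling to one median and without retinoic acid batch 2 replicate 2, where the adjusted p was 0.0523. *Lamc1* encodes gamma1, the gamma chain of most laminins. Retinoic acid over IL-1α gave 0.40 (SE 0.14, adjusted p = 0.0404), and neither treatment passed the test against untreated. Its arrays read 8.99, 8.99, 9.40 and 9.19 with retinoic acid and 8.95, 8.81, 8.73 and 8.46 with IL-1α, without overlap. The call was lost without a detection filter and on leaving out any 1 of 6 arrays, untreated batch 1 replicate 1, IL-1α batch 1 replicate 2 or any retinoic acid or IL-1α array of batch 2, with an adjusted p of up to 0.154. *Lamc3*, the gamma3 chain, was detected on 3 of 4 IL-1α arrays and on no other. With IL-1α its values were 5.73 and 5.76 for batch 1, then 4.97 and 5.40 for batch 2, against 4.57 to 4.91 on the other arrays. *Lamc3* was at least 1.27-fold higher with IL-1α than untreated, against the lowest detected signal. No p-value is given, as a looser filter of 2 arrays would admit *Lamc3* only through the IL-1α arrays.

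Whether the effects differed between the batches was tested with limma by terms for treatment by batch. For retinoic acid against untreated, 0 of the 19 genes passed, against 2.56% of all genes, and 4 had an unadjusted p under 0.05, *Itga11*, *Itgb7*, *Lama5* and *Lamc1*, against 15.2% of all genes. For IL-1α against untreated the effect on *Lamb3* differed, 1 of 19 against 5.03% of all genes, with a change in batch 2 that was lower by 1.38 on the log2 scale (SE 0.22, adjusted p = 0.00565). For retinoic acid against IL-1α, *Itga11*, *Lama5* and *Lamb3* differed, 3 of 19 against 9.96% of all genes. The difference in batch 2 exceeded that in batch 1 by 1.29 for *Itga11* (SE 0.21, adjusted p = 0.00334), by 1.16 for *Lama5* (SE 0.22, adjusted p = 0.00662) and by 1.41 for *Lamb3* (SE 0.22, adjusted p = 0.00234). Each batch held 2 arrays of a treatment, and a p that missed the threshold does not show equal effects. In simulated data this test recovered 0% of differences of 1 on the log2 scale and 50.53% of differences of 2. Only 105 and 95 probes of 18177 were changed there. The adjustment depends on how many probes change, so these shares need not hold for the real arrays.

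**Figure D4:**
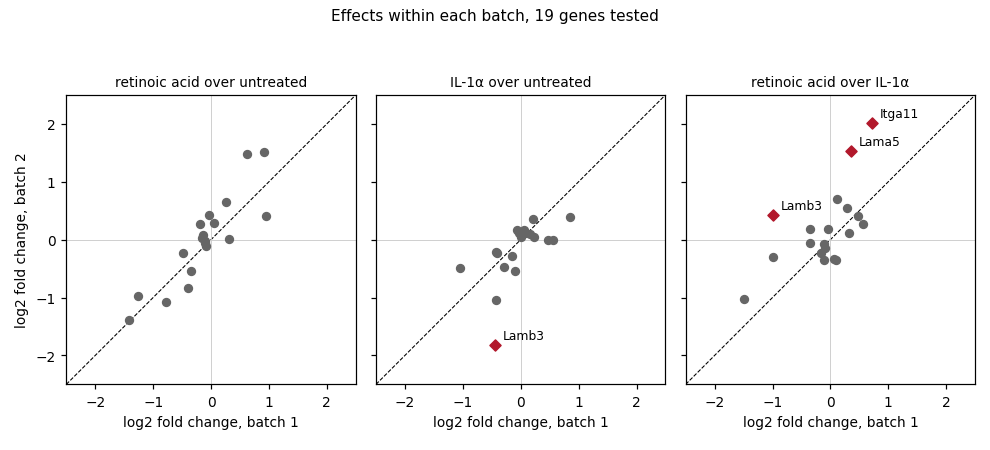
Log2 fold change of the 19 tested genes within batch 1 (x axis) and within batch 2 (y axis) in the 3 comparisons. Each point is a gene, the dashed line marks equal changes, and red diamonds are genes whose effect differed between batches at adjusted p under 0.05. *Lamb3* lies at -0.98 and 0.43 in the panel of retinoic acid over IL-1α.

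Proteins that bind integrins inside and outside the cell were measured on the same arrays. Of 23 tested adaptors and kinases of integrin adhesions, 7 rose and 1 fell with retinoic acid, 34.8% against 36.7% of all genes, with a median of 0.22. With IL-1α 2 rose and 2 fell, 17.4% against 30.2% of all genes, with a median of 0.02. The largest rise with retinoic acid was that of *Tln2*, a talin that links integrin tails to actin, by 1.81 (SE 0.23, limma adjusted p = 5.11e-05). *Cib1*, which binds the tail of alphaIIb, rose by 0.83 (adjusted p = 0.000485), and *Lims2*, an adaptor at the integrin-linked kinase, fell by 0.94 (adjusted p = 0.000277). Of the 28 listed adaptors and kinases on the array, 5 were below the detection filter.

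Of 22 tested matrix ligands of integrins, 14 fell and 3 rose with retinoic acid, and 11 fell and 2 rose with IL-1α. These are 77.3% against 36.7% of all genes and 59.1% against 30.2%. The median log2 change was -1.01 and -0.37, against 0.01 over all genes in both comparisons. With retinoic acid *Ibsp*, a bone sialoprotein with an RGD site, fell by 3.06 (SE 0.21, limma adjusted p = 1.58e-07), and *Comp*, a cartilage matrix protein, fell by 2.25 (SE 0.12, adjusted p = 1.75e-08). With IL-1α *Ibsp* fell by 2.45 and *Col3a1*, the chain of type III collagen, by 1.88 (adjusted p = 3.14e-06 and 3.25e-05). *Fga*, a fibrinogen chain, rose with retinoic acid by 1.73 (SE 0.21, adjusted p = 3.57e-05). The list shares *Col2a1* and *Comp* with the chondrocyte markers and *Ibsp* with those of osteoblasts. It also shares *Col1a1* and *Col1a2* with the markers of synovial and fibrous tissue.

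Of 15 tested partners of laminin in basement membranes, 5 rose and 6 fell with retinoic acid, while 1 rose and 9 fell with IL-1α. These are 73.3% against 36.7% of all genes and 66.7% against 30.2%, and the medians were 0.01 and -0.54. The 8 endothelial markers had a summed linear level of 1104 to 1522 with IL-1α and 2118 to 2651 untreated, with 3 called lower, and their part in the fall with IL-1α was not tested. *Fbln1*, a matrix protein of basement membranes, rose by 1.72 with retinoic acid (SE 0.16, limma adjusted p = 3.53e-06) and fell by 1.55 with IL-1α (SE 0.16, adjusted p = 2.13e-05). *Col4a6*, a chain of type IV collagen, rose by 1.17 and fell by 1.01 in the same order (adjusted p = 2.38e-05 and 0.000153). Of 6 tested ligands on cell surfaces, 1 rose and 2 fell with retinoic acid, and 1 rose and 1 fell with IL-1α, which is 50% against 36.7% of all genes and 33.3% against 30.2%. *Vcam1*, bound by alpha4 and alpha9 integrins, rose by 3.22 with retinoic acid (SE 0.21, adjusted p = 1.13e-07). *Icam1*, bound by beta2 integrins, rose by 2.92 with IL-1α (SE 0.21, adjusted p = 7.03e-07). *Jam2*, an adhesion molecule of cell junctions, fell by 1.05 with retinoic acid (SE 0.15, adjusted p = 0.000163), and *Icam2*, bound by alphaL, fell by 0.91 with IL-1α (SE 0.13, adjusted p = 0.000203). The receptor subunits of *Vcam1*, *Itga4* and *Itga9*, were detected on 0 arrays, and *Itgb2* was detected on 2.

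**Figure D5:**
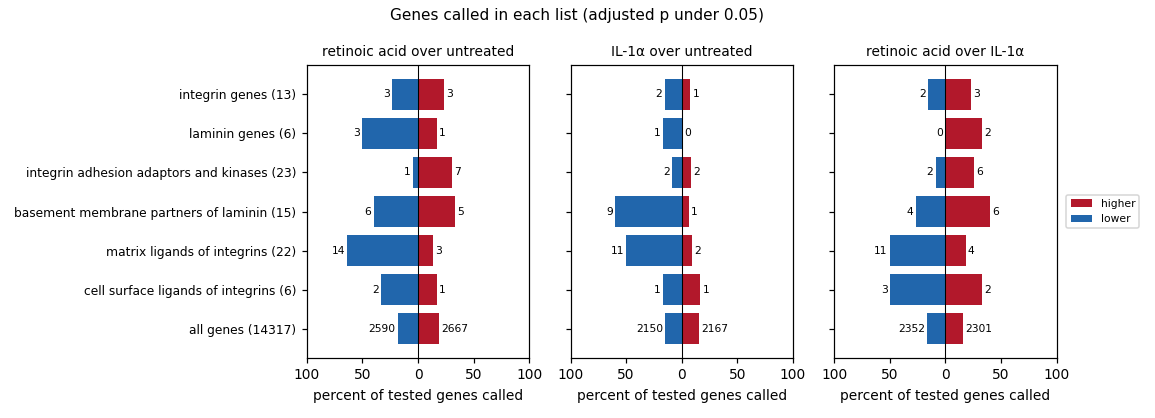
Share of the tested genes of each list called higher (red, to the right) or lower (blue, to the left) at adjusted p under 0.05, in percent, for the 3 comparisons. The number beside each bar is the number of genes and the number after each name is how many were tested. With retinoic acid 14 of 22 matrix ligands fell, against 2590 of 14317 genes overall.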

How the data were processed

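RNA from femoral head cartilage was hybridised to 12 bead arrays, in 3 treatments and 2 batches. The authors deposited the intensity of each probe on a linear scale, with no background subtraction or normalization. They also deposited a detection score per probe and array, which rises with intensity, so that the detection p is taken as 1 minus that score. Software for bead summaries is not given in the sources used here. The methods name separate unpooled mice and serum-free culture, where the labels name several hips per well and serum before treatment, and they do not identify arrays, so all 12 were used.

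The analysis followed the methods and used limma 3.58.1 in R 4.3.3. The neqc function corrected background from the detection p, normalized by quantiles and added an offset of 16 before log2. A probe was kept if 4 or more of the 12 arrays had a detection p under 0.05, which left 18200 of 46632 probes and 14317 of 34509 symbols. lmFit and eBayes fitted each treatment together with a 4-level factor of batch and replicate number, and a further model had terms for treatment by batch. Adjusted p-values are Benjamini-Hochberg values over all kept probes, with a threshold of 0.05. The number of arrays limits the precision. The functions were tested on simulated data, with changes added to probes detected on all 12 arrays. In each run 105 probes were changed by 1 and 95 by 2. Of changes of 1 on the log2 scale, 79.05% were recovered for retinoic acid against untreated and 0% for effects that differ between batches. For changes of 2 the shares were 95.79% and 50.53%. With so few probes changed, the shares need not hold for the real arrays.

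Each gene is given by the brightest of its kept probes, or by its brightest probe where none was kept. Values per array are given for genes past 1.5-fold with a call in at least 1 comparison and for the other genes called, and at most the 2 largest rises and 2 largest falls are named from other lists. For a probe with no detection in a whole group, the fold is a bound, for which every array of that group takes the dimmest detected signal, or the probe's signal if that is higher. The exact permutation test exchanged the 8 arrays of 2 treatments. The genes, gene lists and tests were chosen with earlier results of these data known. Alternatives changed the block, background correction, normalization, offset, filter, detection threshold and probe choice, or left out 1 array. Symbols are those of the array. The values of 1 gene that matched the rule are not reported here. Promoter sequences are from the RefSeq table of GRCm38.p6. Protein sequences were not used here.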

Additional observations from a re-analysis of the deposited data

Results flagged for a closer look

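For 3 genes a treatment effect was not the same in both batches, which are also different mouse lines. The change of *Lamb3* with IL-1α over untreated was -1.38 in batch 2 minus batch 1 (limma adjusted p = 0.00565). For retinoic acid over IL-1α the same difference was 1.29 for *Itga11* (adjusted p = 0.00334), 1.16 for *Lama5* (adjusted p = 0.00662) and 1.41 for *Lamb3* (adjusted p = 0.00234). *Lamb3* changed sign in that comparison, since both retinoic acid arrays were below both IL-1α arrays in batch 1 and above them in batch 2.

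Some genes below the detection filter were detected with a treatment and on none of the 4 untreated arrays. With IL-1α, *Itga7* had a mean log2 intensity of 5.42 and was detected on 3 of 4 arrays, and *Lamc3* had a mean of 5.47 and was detected on 3 of 4. With retinoic acid, *Itgb2* had a mean of 5.39 and was detected on 2 of 4 arrays, both of batch 2. No array stood apart within the 57 groups of 4 arrays examined for the 19 tested genes.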

How the results depend on the processing

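Under the alternatives run, within each batch included, none of the 21 calls of the 3 comparisons changed direction. The differences of replicates correlated between treatments at 0.003 to 0.06 in batch 1, so replicate numbers did not pair the arrays there. In batch 2 the correlations were -0.11 to 0.39, which does not settle whether they did. Without a replicate block and with batch as the only covariate, the counts called stayed at 10, 4 and 7 for retinoic acid against untreated, IL-1α against untreated and retinoic acid against IL-1α. The shares of all genes called were 38.4%, 32.2% and 34.1% in the same order. With treatment as the only term the counts were 4 (*Itga11*, *Itga6*, *Lama5* and *Lamb3*), 2 (*Itga10* and *Lamb3*) and 2 (*Itga11* and *Itga6*). The shares of all genes fell as well, to 13.2%, 7.63% and 11.8%. Requiring detection on all 12 arrays left 13 genes tested and 6 called for retinoic acid against untreated, beside 43.7% of all genes. *Lama5* and *Lamb3* were not tested there, as each was detected on 11 arrays. Leaving out 1 array gave 8 to 10, 2 to 5 and 4 to 8 calls. Of all genes, 30.3% to 37.4%, 21.5% to 31.4% and 26.6% to 33.8% were then called. The low values were 2 without untreated batch 1 replicate 2, and 4 without IL-1α batch 1 replicate 2 or without retinoic acid batch 2 replicate 1. *Itga5*, *Itgb4* and *Lamb3* lost their calls with IL-1α without a filter on detection, where 10.1% of all genes were called. With an offset of 50 the change of *Lama5* with retinoic acid was 0.77 and that of *Lamb3* -0.94.

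Effects that differed between batches were 0 for retinoic acid against untreated. They were 1 without the replicate block, without background correction, with an offset of 50 or without a filter, and 2 with detection on at least 2 arrays. For IL-1α against untreated they were 1, with 2 at the offset of 50 and 0 with detection on all 12 arrays. For retinoic acid against IL-1α they were 3, with 5 without a filter and 1 with detection on all 12 arrays. Leaving out 1 array gave 0 to 1, 0 to 2 and 2 to 4. For IL-1α against untreated the count was 0 without untreated batch 1 replicate 1 or IL-1α batch 2 replicate 2, and 2 without untreated batch 1 replicate 2. For retinoic acid against untreated it was 1 without untreated batch 2 replicate 2. Fewer genes entered where detection was stricter, and the cause of the other changes was not tested. Genes near background, among them *Lama2*, *Itgb4* and *Itgae*, are measured with compressed changes. So are *Lama5*, which was near background untreated, and *Lamb3*, which was near it with retinoic acid. The test between batches rests on 2 arrays per treatment and batch.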
